A study of Mus musculus with 3 samples.

Results

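Chemokine ligand genes encode small secreted or membrane-bound proteins that attract leukocytes, and 38 of them among 20558 autosomal protein-coding genes of the mouse were examined for histone H3 acetylated at lysine 27 (H3K27ac) in pancreatic spheroids. The genes were chosen by symbol alone: Ccl or Cxcl followed by a number, Cx3cl1 and Xcl1, protein-coding and placed on an autosome in the RefSeq annotation of GRCm38. The symbol of 40 genes fits, but Cxcl11 is annotated as a transcribed pseudogene and Ccl21c lies on an unplaced scaffold, so both were left out. Gene bodies extended by 50 kb were joined where they touched, which gave 19 clusters, 7 with several members and 12 with 1. A peak was counted once per cluster.

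The groups were spheroids, three-dimensional epithelial cultures, of untreated mice and of mice treated earlier with caerulein, a peptide that overstimulates acinar cells and is used to bring on pancreatitis. All mice were wild-type C57BL/6J, and both cultures were grown in the same epidermal growth factor-containing medium and precipitated with the same H3K27ac antibody. The sources used here do not give age, sex, the number of mice behind a culture or the time after treatment. Each group has 1 H3K27ac library and 1 peak list. There is therefore no replicate error, no p-value was computed, and every difference below compares single libraries. A longer peak can come from more cells with the mark or from more of the mark per cell, and these cannot be told apart in bulk chromatin. The deposited lists hold 38793 post-caerulein and 37765 untreated peaks, of which 37924 and 36846 are autosomal. They give no read counts, so the depth is unknown. The peak score is the authors' own value, which no header defines, and it was read within 1 list. The ductal marker genes Krt19, Krt7, Sox9, Cftr and Epcam were marked at the start in both lists, whereas 5 of 6 acinar, 6 of 6 fibroblast, 5 of 6 endothelial and 5 of 6 T cell markers were marked at the start in neither. Of 6 macrophage and leukocyte markers, Spi1, Cd68 and Cd14 were marked in both lists, Ptprc after caerulein alone and Csf1r in neither. Adgre1 had no peak within 50 kb. The length under peaks within 50 kb, summed per marker list, was 116.0 kb untreated and 113.7 kb after caerulein for leukocytes, 84.9 and 78.8 kb for T cells, 61.1 and 52.4 kb for endothelium, 22.2 and 32.1 kb for fibroblasts and 49.1 and 50.2 kb for acinar genes. Among the ductal genes it was 54.5 kb untreated and 23.6 kb after caerulein at Cftr (log2 ratio -1.17), 52.6 and 41.5 kb at Krt19, 68.3 and 59.7 kb at Krt7, 30.0 and 30.6 kb at Epcam, and 5.1 and 11.2 kb at Sox9 (0.99). Within the leukocyte list the length differed in opposite directions at Spi1 (15.2 kb untreated, 6.2 kb after caerulein) and Csf1r (7.6 and 12.6 kb). The part of these differences and of other cell types in the values below was not tested.

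Chemokine ligands bind G protein-coupled receptors on leukocytes and guide them along gradients into tissue. Inflammatory ligands are induced by cytokines through NF-kB and interferon signalling, often as whole genomic clusters, whereas homeostatic ligands are made steadily in lymphoid organs and barrier epithelia. H3K27ac marks active promoters and enhancers. In the exocrine pancreas, acinar and duct cells are known to release neutrophil- and monocyte-attracting chemokines in pancreatitis.

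Of the 6 ligand promoters printed here, those of Cxcl1, Cxcl2, Cxcl3 and Ccl20 held a strict form of the motif that NF-kB is known to bind. That of Cxcl10 held a looser form alone. The 250 bases before the transcription start are given, 5′ to 3′ in the direction of the gene, for the 6 members marked in both lists that had the largest difference in covered length and an entry in the RefSeq promoter table (GRCm38.p6). They are shown to let the letters before each start be read beside the peaks over it. Capitals mark, on either strand, a strict kappa B-type motif, matched for instance by GGGAATTTCC, in which the fourth and the fifth base may be any, and the core promoter motif TATAAA.
Cxcl1 (chr5:90890995-90891244, plus strand): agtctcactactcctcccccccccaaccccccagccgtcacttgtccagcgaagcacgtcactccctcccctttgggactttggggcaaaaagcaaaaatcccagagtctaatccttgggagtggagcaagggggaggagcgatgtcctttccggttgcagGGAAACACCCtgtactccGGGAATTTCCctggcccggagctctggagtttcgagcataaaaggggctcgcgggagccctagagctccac
Cxcl2 (chr5:90903649-90903898, plus strand): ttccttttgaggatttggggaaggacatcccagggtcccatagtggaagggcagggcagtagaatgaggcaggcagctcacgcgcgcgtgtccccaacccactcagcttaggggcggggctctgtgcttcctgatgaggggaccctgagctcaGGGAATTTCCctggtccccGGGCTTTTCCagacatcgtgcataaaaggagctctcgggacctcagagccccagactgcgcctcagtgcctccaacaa
Cxcl3 (chr5:90785851-90786100, plus strand): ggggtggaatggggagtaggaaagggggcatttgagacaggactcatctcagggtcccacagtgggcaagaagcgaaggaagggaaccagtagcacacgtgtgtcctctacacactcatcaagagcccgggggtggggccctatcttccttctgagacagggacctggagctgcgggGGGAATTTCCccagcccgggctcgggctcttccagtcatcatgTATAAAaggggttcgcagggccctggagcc
Ccl20 (chr1:83116516-83116765, plus strand): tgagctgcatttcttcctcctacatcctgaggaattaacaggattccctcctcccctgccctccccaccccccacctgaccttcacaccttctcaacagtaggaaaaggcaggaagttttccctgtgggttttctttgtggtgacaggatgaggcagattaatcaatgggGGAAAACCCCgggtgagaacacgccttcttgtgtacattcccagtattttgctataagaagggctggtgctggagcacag
Cxcl10 (chr5:92348890-92349139, minus strand): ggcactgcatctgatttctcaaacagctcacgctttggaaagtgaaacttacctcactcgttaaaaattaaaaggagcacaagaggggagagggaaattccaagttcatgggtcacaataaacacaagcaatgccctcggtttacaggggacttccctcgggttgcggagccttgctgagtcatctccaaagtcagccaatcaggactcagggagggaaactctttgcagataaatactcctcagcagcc
Ccl17 (chr8:94810203-94810452, plus strand): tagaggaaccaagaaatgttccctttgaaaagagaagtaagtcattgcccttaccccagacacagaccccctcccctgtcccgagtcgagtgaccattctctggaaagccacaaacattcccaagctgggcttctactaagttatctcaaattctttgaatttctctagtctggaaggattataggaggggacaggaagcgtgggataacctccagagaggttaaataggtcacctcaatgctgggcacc
Cxcl1 and Cxcl2 each held 2 strict kappa B matches and Cxcl3 and Ccl20 1 each, all within 97 bases before the start. The letters GGGAATTTCC stood in Cxcl1 (71 to 62 bases before the start), Cxcl2 (97 to 88) and Cxcl3 (73 to 64). Ccl9 was the fifth member with a match, so that 5 of 28 members with a promoter entry had this motif. Counted by entry, it was in 5 of 34 member entries, against 1.5% of all 20085 autosomal protein-coding promoter entries of that length. Several entries can belong to 1 gene. A looser kappa B form (3 G, any 5 bases, 2 C), which includes every strict match, was found in 15 members. Counted by entry, it was in 16 of 34 member entries, near the 52.5% of all entries. Among the 15 members was Cxcl10, with GGGAAATTCC 159 to 150 and GGGGACTTCC 104 to 95 bases before its start. Cxcl10 held an interferon response-type match (2 GAAA repeats with any 2 bases between, 3.0% of all entries) 213 to 204 bases before its start and an AP-1-type match (TGANTCA, 6.2%) 74 to 68 bases before it. Ccl17 held a STAT-type match (TTCNNNGAA, 6.7%), 99 to 91 bases before its start. TATAAA was found in 11.7% of all entries and in 10 members (10 of 34 member entries). All motifs were searched on both strands. A match describes the letters and does not show that a factor is bound, and a missing match says only that these letters are not in this window.

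The start of 12 of the 38 members carried H3K27ac in both conditions, and that of 0 members in 1 condition alone. Marked means here that some peak came within 1 kb of a transcription start. For 10 members the promoter table gives no start, and either end of the gene was used: Cxcl5, Cxcl16, Cxcl17, Ccl2, Ccl4, Ccl5, Ccl7, Ccl11, Ccl24 and Ccl26. The marked genes were the neutrophil attractants Cxcl1, Cxcl2, Cxcl3 and Cxcl5, the interferon-inducible Cxcl10, the membrane-anchored Cxcl16 and Cx3cl1, the mucosal Cxcl17, the CCR6 ligand Ccl20, the CCR4 ligand Ccl17, and the epithelial Ccl25 and Ccl28. At 31.6% of members (exact 95% binomial interval 17.5 to 48.6, counting error over genes alone), the share was below the 54.5% of all autosomal protein-coding genes marked in both lists. Over all genes, 1.85% were marked after caerulein alone and 1.13% in untreated spheroids alone. With the peak required over the start itself, Ccl17 became marked after caerulein alone. The Ccl25 start lay under a peak that also covers Elavl1, and the Cxcl16 peaks also cover Med11 or Zmynd15, so these marks cannot be given to 1 gene.

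The other 26 members had no marked start in either list (background 42.5% of all genes), and 12 of them had no peak at all within 50 kb. These 12 were the lymphoid ligands Ccl19, Ccl21a, Ccl21b and Ccl21d with the skin-type Ccl27b, Cxcl14, the eotaxin gene Ccl26, and the monocyte and eosinophil attractants Ccl2, Ccl7, Ccl8, Ccl11 and Ccl12. Ccl21a, Ccl21b, Ccl21d and Ccl27b belong to families of near-identical copies, where reads can be lost or split, so their lack of peaks is uncertain. The cluster of Ccl2, Ccl7, Ccl11, Ccl12, Ccl8 and Ccl1 on chromosome 11 (82035577 to 82179812) held 1 peak in all, an untreated-only peak of 976 bp with a score of 68.46, 791 bp from Ccl1. Across all genes, 81.0% had a peak within 50 kb in at least 1 list, against 26 of the 38 members. A missing peak means that the caller reported none at an unknown depth.

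The windows of the 19 clusters held 93 post-caerulein and 84 untreated peaks, most of them found in both lists. Peaks without any overlap in the other list, called list-only, numbered 17 after caerulein (18.3%, exact 95% interval 11.0 to 27.6, background over all autosomal peaks 17.6%). The untreated list had 9 (10.7%, 5.0 to 19.4, background 14.2%). Both intervals include the background. Within 10 kb of the members the order turned, with 3 list-only peaks of 35 after caerulein and 5 of 38 in the untreated list. Of the 17 and 9, 0 and 0 scored at or above the median of their own list (527.99 after caerulein and 687.0 untreated), where 0.949% and 1.6% of all autosomal peaks in the upper part of the lists were list-only, and 15 of the 17 and 8 of the 9 lay in the lowest part (percentile under 25) of scores. Of the 17 and 9, the nearest protein-coding gene was a chemokine ligand for 11 and 4, and a neighbour for the others. Among all peaks nearest to a ligand these were 11 of 49 after caerulein (22.4%, 11.8 to 36.6) and 4 of 45 untreated (8.9%, 2.5 to 21.2). These intervals also include the backgrounds of 17.6% and 14.2%.

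Covered length, the number of bases under peaks within 50 kb, came to 316.2 kb over the post-caerulein and 283.5 kb over the untreated clusters. That is a ratio of 1.116, against 1.045 for all autosomal peaks (138.1 and 132.2 Mb). Without the Cxcl5 to Cxcl2 cluster the ratio was 1.058. Of the 15 clusters with a peak, 10 were longer after caerulein and 5 in untreated spheroids. No like count was made over the genome, where covered length was also longer after caerulein (ratio 1.045).

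**Figure D1:**
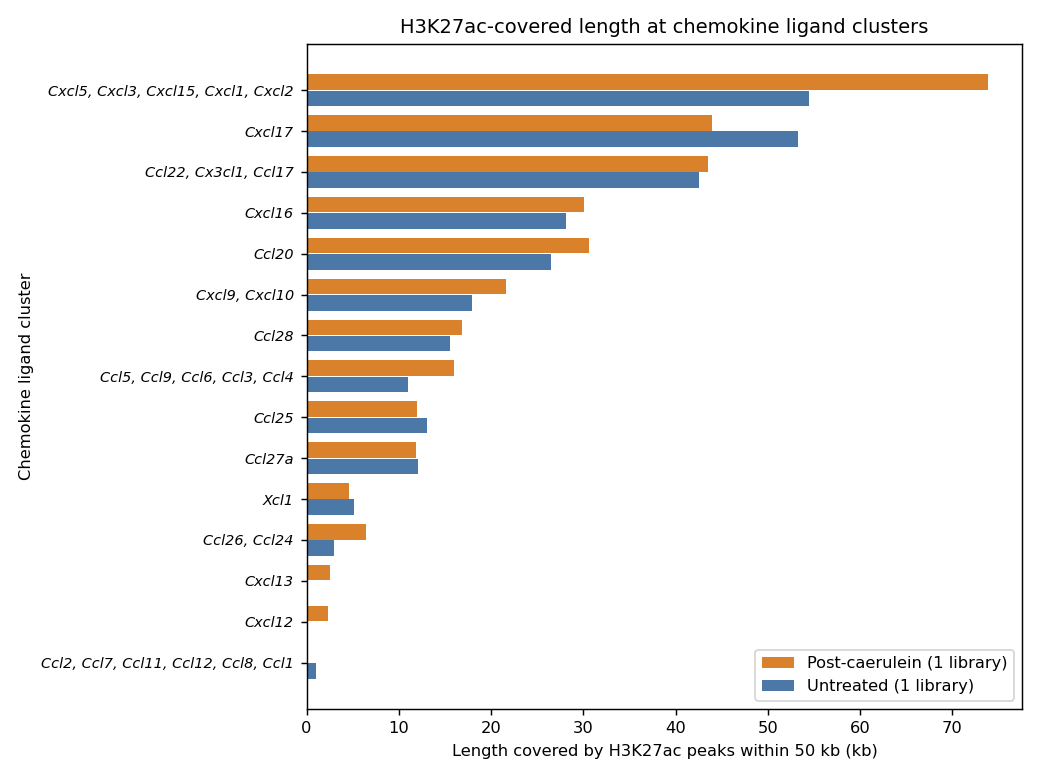
Bars give the length under H3K27ac peaks (kb) within 50 kb of the member genes of each cluster that had a peak, after caerulein (orange) and untreated (blue), with 1 library per bar. The Cxcl5 to Cxcl2 cluster had the longest bar (73.9 kb after caerulein, 54.5 kb untreated), and the Ccl2 to Ccl1 cluster had 1.0 kb in untreated spheroids and no peak after caerulein.

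The neutrophil-attracting cluster on chromosome 5 (90759298 to 90905938) had the most covered length of all 19 in both lists. Its window is also the widest, and per base of window Cxcl17 had more in both lists. Cxcl1, Cxcl2, Cxcl3 and Cxcl5 encode ligands that draw neutrophils through the receptor CXCR2, and Cxcl15 encodes lungkine, a neutrophil attractant of the lung. Its window held 17 untreated peaks over 54.5 kb and 18 post-caerulein peaks over 73.9 kb, a ratio of 1.36 and a log2 ratio of 0.43 with a pseudocount of 1 kb, under the 1.5-fold used to call a difference. With peaks limited to the median score of their list or above, the log2 ratio was 0.59, past 1.5-fold. Of the 17 untreated peaks, 0 were list-only, so every untreated region of the cluster was also found after caerulein. Of 11 shared regions nearest to a member, 9 were longer after caerulein, with a median ratio of 1.26 against 1.02 over all shared autosomal regions.

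The peak over Cxcl1 spanned 5034 bp after caerulein (90890019 to 90895052, score 2003.3) and 3152 bp in untreated spheroids (score 1429.81), a ratio of 1.6. At Cxcl2 the peak spanned 11475 bp after caerulein (90897077 to 90908551) and 7766 bp untreated, both at a score of 3100, at which many peaks of each list tie. It reached past the far end of Cxcl2 in the post-caerulein list and stopped inside the gene in the untreated list. Upstream of Cxcl1, 4427 bp from the gene body, 1 post-caerulein peak of 15324 bp (90871495 to 90886818, score 3100) stood against 3 untreated peaks that together covered 13300 bp. Peak number there was 1 against 3, while covered length differed by a ratio of 1.15.

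Around Cxcl5, 2 post-caerulein peaks covered 10856 bp of a region (90752199 to 90763089) where 3 untreated peaks covered 8600 bp, a ratio of 1.26. Over the start of Cxcl3 the peak was 3640 bp after caerulein (score 772.47) and 2569 bp untreated (score 574.81). Cxcl15 had no peak within 1 kb of its start in either list and shared the surrounding peaks of Cxcl3 and Cxcl5. Farther out, 35328 bp from Cxcl5, 1 post-caerulein peak of 8309 bp (90715662 to 90723970) stood against 2 untreated peaks of 5369 bp in sum, and 49069 bp from it a region had 7935 bp after caerulein and 4812 bp untreated, of which the untreated peaks lay outside the window. A region 46458 bp from Cxcl5 was instead longer in untreated spheroids, with 2303 bp against 1344 bp.

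The cluster's 4 post-caerulein-only peaks were narrow and low-scored. The nearest gene was Cxcl5 for 3, of 917, 1927 and 1053 bp (scores 62.68, 73.56 and 62.08), and Cxcl1 for 1, of 742 bp (score 58.91), where the lowest score of that list is 50.01. The peak of 1927 bp adjoined a shared region, with 95 bp between it and the nearest untreated peak. The promoters of Cxcl1, Cxcl2 and Cxcl3 printed above lay in shared regions. Within 50 kb of each gene alone, covered length was 38.5 kb after caerulein and 27.7 kb untreated at Cxcl5, 35.3 and 26.8 kb at both Cxcl1 and Cxcl2, 20.1 and 16.0 kb at Cxcl3, and 19.6 and 16.0 kb at Cxcl15. The non-member chemokine genes Ppbp and Pf4, which lie between Cxcl5 and Cxcl3 and encode platelet chemokines, had no marked start and 24.9 and 21.5 kb untreated against 32.5 and 28.6 kb after caerulein, from the same peaks.

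**Figure D2:**
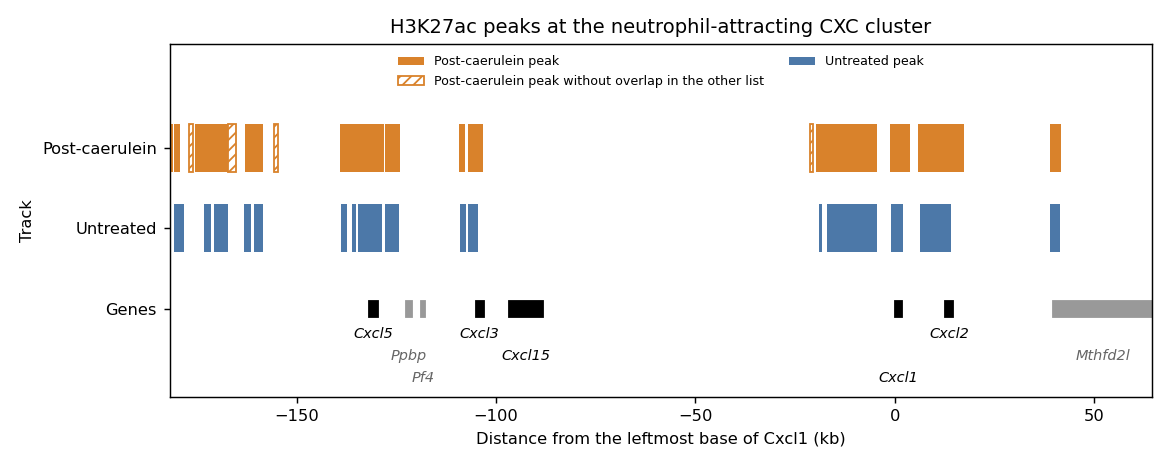
Horizontal bars are H3K27ac peaks of the post-caerulein (orange) and untreated (blue) lists along the neutrophil-attracting cluster, by distance from the leftmost base of Cxcl1 (kb). Hatched bars had no overlap in the other list, black boxes are member genes and grey boxes neighbours, and the narrowest gaps between peaks are not visible at this scale. The post-caerulein peaks over Cxcl1 and Cxcl2 extend farther to the right, and the 4 hatched peaks lie apart from the genes.

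The interferon-inducible ligands Cxcl9 and Cxcl10, which recruit T cells through CXCR3, lie together on chromosome 5 (92321331 to 92348889). The start of Cxcl10 had a shared peak of 2332 bp after caerulein (score 584.67) and 2216 bp untreated (646.48), a ratio of 1.05. The region also lies over Art3, within whose span Cxcl10 sits. Cxcl9 had no marked start. The window had 21.6 kb after caerulein and 17.9 kb untreated, and its list-only peaks, 2 post-caerulein and 1 untreated, all lay over Art3.

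Ccl20, the ligand of CCR6 that draws dendritic cells and Th17 cells to epithelia, had a shorter peak at its own start after caerulein. The peak there was 1435 bp after caerulein (83115930 to 83117364 on chromosome 1, score 72.72) and 2473 bp untreated (score 227.44), a ratio of 0.58. A post-caerulein-only peak of 1318 bp (score 105.36) lay 2027 bp before the gene. At the other end of the gene the peak was 1985 bp after caerulein and 2242 bp untreated. Of the regions nearest to Ccl20, the highest-scored lay 13901 and 15158 bp away and were close in both lists (4652 and 4777 bp after caerulein, 4322 and 4469 bp untreated). Higher scores in the window belonged to regions nearest to Daw1, of which 1 had 5708 bp after caerulein and 3810 bp untreated. Over the whole window, 12 post-caerulein peaks covered 30.6 kb and 10 untreated peaks 26.5 kb, partly near Daw1, a log2 ratio of 0.20. With peaks limited to the median score of their list or above, that ratio was 0.81, past 1.5-fold. Nearest to Ccl20 the same regions passed this limit in both lists. The peaks that passed after caerulein alone, of 5708, 2371 and 1316 bp, were nearest to Daw1.

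The membrane-anchored ligands carried wide peaks of nearly equal length in both conditions. Cx3cl1 (fractalkine) and Cxcl16 have a chemokine domain on a stalk and are released by the sheddases ADAM10 and ADAM17. The widest peak nearest to any member in both lists covered the body and downstream flank of Cx3cl1, with 15406 bp after caerulein and 15422 bp untreated, both at a score of 3100. The region at its start had 4900 bp after caerulein and 4986 bp untreated. At Cxcl16 on chromosome 11 (70454389 to 70459984), 2 regions had 3932 and 7587 bp after caerulein against 3936 and 6880 bp untreated. Within 50 kb, Cx3cl1 had 29.1 kb after caerulein and 27.6 kb untreated, and Cxcl16 30.1 and 28.1 kb. Adam10 and Adam17 were marked at the start in both lists, with 18.2 and 33.1 kb after caerulein against 17.3 and 33.0 kb.

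Ccl17 and Ccl22, ligands of CCR4 on T helper 2 and regulatory T cells, flank Cx3cl1 on chromosome 8. The region over Ccl17 had 3311 bp after caerulein (94809651 to 94812961, score 132.61) and 1373 bp untreated (94810882 to 94812254, score 92.82). The ratio of 2.41 was the highest of all 36 shared regions nearest to a member, of which 6 were at least 1.5-fold longer after caerulein and 2 in untreated spheroids. Over all shared autosomal regions 8.56% were at least 1.5-fold longer after caerulein and 5.49% in untreated spheroids. The scores of the Ccl17 peaks are low in both lists. Ccl22 had no marked start, and 1 untreated-only peak of 1221 bp (score 76.74) lay 9249 bp from it.

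Cxcl17, a ligand of mucosal epithelium, had more covered length in untreated spheroids. Its window on chromosome 7 held 8 untreated peaks over 53.3 kb and 7 post-caerulein peaks over 44.0 kb, a log2 ratio of -0.27, under 1.5-fold. With peaks limited to the median score of their list or above, it was -0.89, past 1.5-fold on the untreated side. That value came mostly from neighbours. A Lipe peak of 15249 bp (score 1188.3) passed in the untreated list, and its 13157 bp counterpart after caerulein (score 286.26) did not. Other passing peaks over Lipe had 11704 bp untreated, reaching Cnfn, and 5757 bp after caerulein. Nearest to Cxcl17, the passing peaks were 3969 and 15198 bp untreated and 3476 and 15193 bp after caerulein. At the gene (25400053 to 25412886) the peak over the end marked in both lists was 3969 bp untreated and 3476 bp after caerulein, both at 3100, and an inner peak was 2929 bp untreated (score 662.16) and 2386 bp after caerulein (199.43). Between them lay an untreated-only peak of 975 bp (score 64.14), 414 bp from the nearest post-caerulein peak. A peak of 15.2 kb, 13905 bp from the gene, differed by a few bases (15198 bp untreated, 15193 bp after caerulein). Most of the remaining difference without the score limit lay at neighbours. Over Cnfn and Lipe, 1 region had 11704 bp untreated and 8229 bp after caerulein, another had 15249 and 13157 bp, and an untreated-only peak had 1339 bp. Near Ceacam1 a region had 1954 bp untreated and 1557 bp after caerulein.

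**Figure D3:**
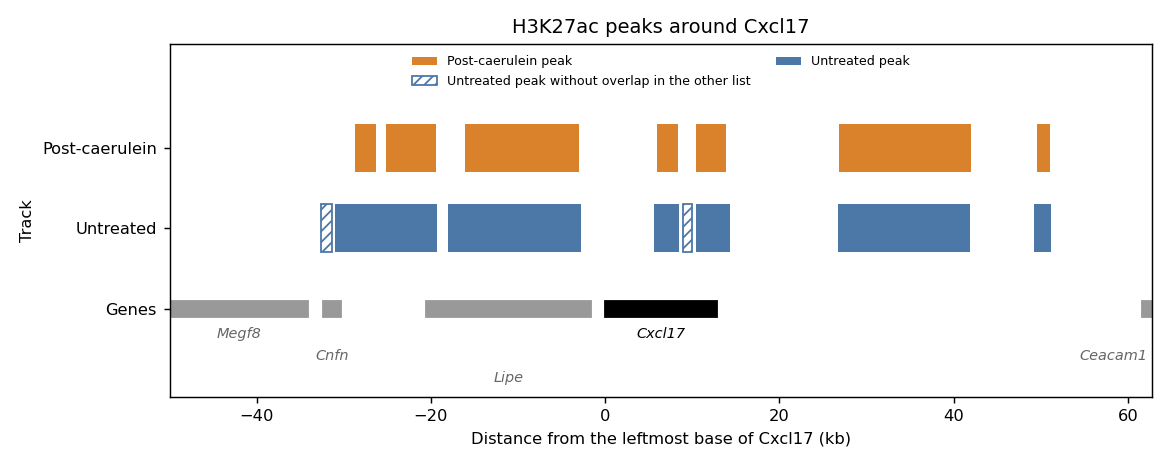
Bars are H3K27ac peaks of the post-caerulein (orange) and untreated (blue) lists around Cxcl17, by distance from its leftmost base (kb), with hatched bars for peaks without overlap in the other list, the black box for Cxcl17 and grey boxes for neighbours. The untreated peaks to the left, over Cnfn and Lipe, are longer, and the 15.2 kb peak to the right is alike in both lists.

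The inflammatory CC ligands Ccl3, Ccl4, Ccl5, Ccl6 and Ccl9, which attract monocytes, macrophages and T cells, had peaks between the genes and no marked start. Their cluster on chromosome 11 (83525778 to 83664683) held 6 post-caerulein peaks over 16.0 kb and 5 untreated peaks over 11.0 kb, a log2 ratio of 0.50. The longest region, 1643 bp from Ccl5, was close in both lists, with 3913 bp after caerulein (score 1169.06) and 3967 bp untreated (1226.03). Near Ccl9, a region 7657 bp away had 3930 bp after caerulein (83561331 to 83565260, score 692.05) and 1766 bp untreated (score 133.02), a ratio of 2.23. A post-caerulein-only peak of 2166 bp (83569206 to 83571371) lay 1546 bp from Ccl9 and 4236 bp from the nearest untreated peak. Its score of 402.67 was the highest of the 17 post-caerulein-only peaks and stood at percentile 45.3 of its list. Near Ccl6, a post-caerulein-only peak of 1106 bp (score 73.95) lay beside 2 shared regions, 4646 and 11732 bp from the gene, of 1915 and 2993 bp after caerulein against 1684 and 2422 bp. The cluster's untreated-only peak, of 1174 bp with a score of 51.85, lay over the neighbouring gene Heatr9. Ccl3 and Ccl4, whose annotated bodies overlap, had no peak nearer to them than to Ccl6, with 4.8 and 4.0 kb after caerulein and 4.0 and 3.2 kb untreated within 50 kb.

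**Figure D4:**
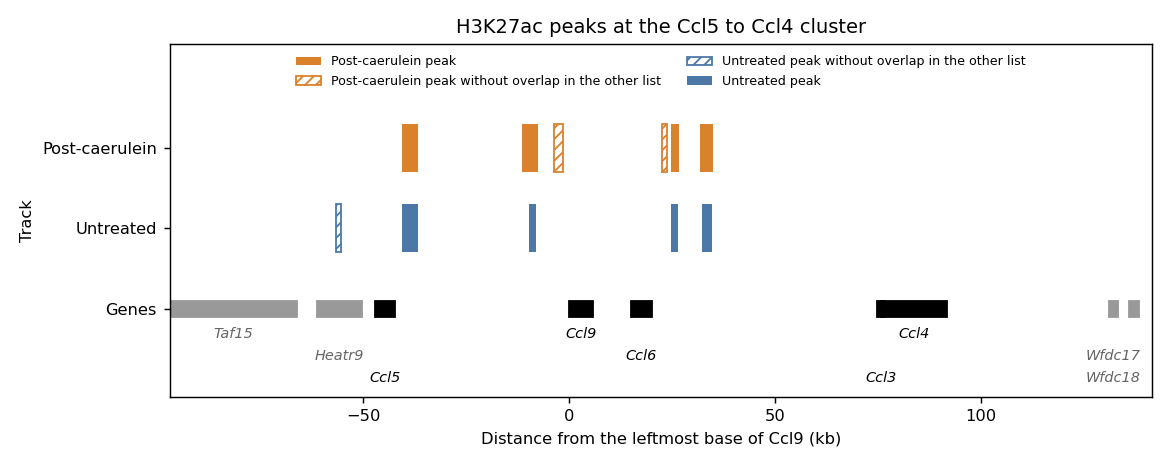
Bars are H3K27ac peaks of the post-caerulein (orange) and untreated (blue) lists along the Ccl5 to Ccl4 cluster, by distance from the leftmost base of Ccl9 (kb), with hatched bars for peaks without overlap in the other list, black boxes for member genes and grey boxes for neighbours. No peak lies over a member gene, and the hatched post-caerulein peaks flank Ccl9 and Ccl6.

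Among the homeostatic ligands, the gut and epithelial Ccl25 and Ccl28 were marked and the others were not. The peak at the Ccl25 start also covers Elavl1, so that mark cannot be given to 1 gene. The start of Ccl28 (chromosome 13, 119623819 to 119654359), a ligand of CCR10 made by mucosal and gland epithelium, had a peak of 2113 bp after caerulein (score 275.45) and 1415 bp untreated (148.25), a ratio of 1.49. Another region in the gene had 1282 and 1240 bp. The region at Ccl25 and Elavl1 had 8466 bp after caerulein and 8357 bp untreated. Cxcl12 and Cxcl13, which guide stem cells and B cells, had no untreated peak within 50 kb and 2 post-caerulein-only peaks each, of 1355 and 1227 bp (47497 and 49057 bp from Cxcl12, scores 75.08 and 92.44) and of 1125 and 1341 bp (22655 and 47211 bp from Cxcl13, scores 55.6 and 63.86). Against a list at 0 no fold is given. Ccl27a had 11.9 kb after caerulein and 12.1 kb untreated, all at neighbours. Xcl1, made by T and natural killer cells, had 1 untreated-only peak of 1943 bp (score 373.86) 40713 bp away and 2 shared regions, and 4.6 against 5.1 kb. Ccl24, an eotaxin gene, had 6.4 kb after caerulein and 3.0 kb untreated, at peaks nearest to Rhbdd2.

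Over single genes, 26 members had a peak within 50 kb, and covered length was longer after caerulein at 20 and in untreated spheroids at 6. The like share over all genes was not counted, and their median log2 ratio was 0.01. At least 1.5-fold more after caerulein was found at 5, Ccl6, Ccl9, Ccl24, Cxcl12 and Cxcl13 (19.2%, against 7.26% of all 16645 autosomal protein-coding genes with a peak). At least 1.5-fold more in untreated spheroids was found at 1, Ccl1 (3.8%, against 6.66%). The log2 ratio used a pseudocount of 1 kb, which understates the change where little is covered. The median log2 ratio was 0.26 for the members and 0.01 for all genes with a peak, whose middle 50% ran from -0.15 to 0.19. The member median was 0.07 within 10 kb, 0.15 within 100 kb and 0.4 with peaks at the median score of their list or above. Members of a cluster share peaks, so these 26 values are not independent. Of the 5 genes, Ccl6 and Ccl9 shared peaks, Cxcl12 and Cxcl13 had no untreated peak, and Ccl24 rested on peaks nearer to Rhbdd2. With a pseudocount of 5 kb, 1 member was past 1.5-fold after caerulein (background 3.08%). With peaks limited to the median score or above, 10 of 22 were (background 9.74%), again with peaks shared within clusters. Ccl20 was among them through peaks nearest to Daw1. With that score limit the log2 ratio was 0.84 at Cxcl5, 0.73 at Cxcl3, 0.71 at Cxcl10, 0.83 at Ccl5, 0.11 at Ccl24 and -0.38 at Ccl28. The Ccl5 value came from a region nearest to Ccl9, which passed after caerulein alone (score 692.05, against 133.02 untreated). No peak nearest to Ccl28 passed, and its value came from peaks over Hmgcs1. There an untreated peak of 12341 bp passed. Of the post-caerulein peaks beside it, that of 9217 bp passed and that of 2698 bp (score 370.97) did not. The limit differs between the lists (527.99 after caerulein, 687.0 untreated). At the starts of Cxcl3 and Cxcl10 the untreated peaks (scores 574.81 and 646.48) fell below it. The post-caerulein peaks there (772.47 and 584.67) passed, so these ratios partly reflect peaks near the limit. Within 10 kb, Ccl5 had a log2 ratio of -0.32 in place of 0.48.

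**Figure D5:**
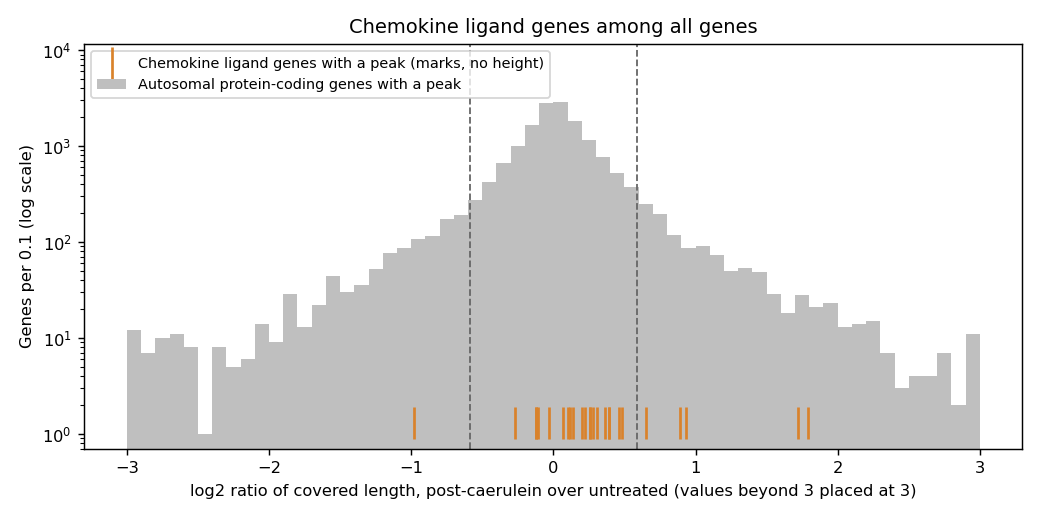
Grey bars count autosomal protein-coding genes with a peak by the log2 ratio of covered length, post-caerulein over untreated, per 0.1 on a log axis, and orange marks place the 26 chemokine ligand genes with a peak. Dashed lines mark 1.5-fold, with 5 members beyond it on the post-caerulein side and 1 on the untreated side.

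A score of 3100 was reached by 9 of the 45 untreated and 6 of the 49 post-caerulein peaks nearest to a member. It stands at percentile 77.4 of the untreated list and 84.8 of the post-caerulein list, so the counts are not compared between the lists. These peaks lay at Cxcl1, Cxcl2, Cxcl16, Cxcl17 and Cx3cl1 in both lists, and in the untreated list also at Cxcl5 and at Ccl25 with Elavl1. Their scores tie at 3100 but for an untreated peak over Med11 and Cxcl16 (3139.03). The widest peaks nearest to a member were those of Cx3cl1, Cxcl1 and Cxcl17 in both lists. Distances set the window: the farthest peaks counted lay 49069 bp (post-caerulein) and 49516 bp (untreated) from a member, and the nearest ones left out 50377 and 50596 bp.

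Of the 22 chemokine receptor genes measured, 16 had no marked start in either list (background 42.5% of all genes), and Ccr10, Ccrl2, Cxcr2 and Cxcr5 were among those marked in both. Of the 19 with a peak within 50 kb, covered length was at least 1.5-fold longer in untreated spheroids at 2 and after caerulein at 2. Over all genes with a peak the shares were 6.66% and 7.26%. The median log2 ratio of the receptors was -0.01. The scavenger receptor gene Ackr3, which removes CXCL12, was marked at the start in untreated spheroids alone and had 28.6 kb untreated against 17.6 kb after caerulein (log2 ratio -0.67). Ccrl2, an atypical receptor that presents chemerin, had 13.6 kb untreated and 5.2 kb after caerulein (-1.25). Ccr2, a receptor of monocytes, had 1.1 kb untreated and 2.1 kb after caerulein (0.60). Cxcr2, the receptor of the neutrophil attractants, had 23.7 kb after caerulein and 18.5 kb untreated. Cxcr4, the receptor of CXCL12, had no peak within 50 kb. Among 5 protease genes, Dpp4, which trims chemokines, was marked at the start after caerulein alone (2.9 kb, 0 kb untreated), and Mmp2 had 3.3 kb after caerulein and 1.2 kb untreated (0.96). All 26 upstream regulators of the NF-kB, interleukin and interferon pathways were marked at the start in both lists, against 54.5% of all genes. Of these, 1 was past 1.5-fold after caerulein, against 7.26% of all genes with a peak: Il1r1, the interleukin-1 receptor, with 14.4 kb after caerulein and 8.2 kb untreated (0.75), and the median log2 ratio of the list was 0.03.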

How the data were processed

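H3K27ac chromatin immunoprecipitation was sequenced from untreated and post-caerulein pancreatic spheroids, with 1 library each. An input library of untreated spheroids was not analysed here. Per the submitters' processing notes, the tools were MACS 1.4, Bowtie2 2.2.6, Trimmomatic 0.38 and SAMtools, and the build is GRCm38, also called mm10. Each deposited list gives a position, a peak name and a score per peak, and belongs to 1 library. The caller's options and control are not given in the sources used here.

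Peaks of the lists were compared with Python 3.11.15, pandas 2.3.3 and numpy 2.4.6 by any shared base. Counts were checked with bedtools 2.31.1, and the scripts were tested on simulated data. Regions are peaks of both lists joined where they overlap. Gene positions came from RefSeq (GRCm38.p6). Exons, introns and untranslated regions were not analysed here, and some genes of the receptor and marker lists are not reported here. Shares carry exact (Clopper-Pearson, scipy 1.17.1) 95% intervals, which cover counting error only. Other settings varied the overlap, score limit, window, pseudocount and fold. Genes named with values are members with a marked start, in a cluster with a peak, nearest to a list-only peak or nearest to the 3 widest or highest-scored peaks, neighbours under those peaks, and up to 5 genes past 1.5-fold per pathway list. Cxcr2, Cxcr4, Adam10, Adam17, Ppbp, Pf4, the receptors with marked starts and the regions given with coordinates were named after their values were seen. So were the lengths at Spi1 and Csf1r. The members and lists were chosen with earlier results of these data known.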

Additional observations from a re-analysis of the deposited data

How the results depend on the processing

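Limiting list-only peaks to the median score of their own list left 0 post-caerulein and 0 untreated peaks in the clusters (difference 0), with 0.9% and 1.6% of all autosomal peaks that reach that score. Within 10 kb, list-only peaks numbered 3 of 35 after caerulein and 5 of 38 untreated, where their difference reversed from 8 to -2. They numbered 11 of 49 and 4 of 45 when the nearest gene had to be a member. Merging peaks within 1 kb left 11 post-caerulein-only peaks and a difference of 5. Over all autosomal peaks the list-only shares were 20.2% and 16.1% with shared peaks required to overlap over 50% of their width, 14.8% and 12.3% when peaks within 1 kb counted as shared, 16.2% and 14.9% after taking the same number of top-scored peaks from each list, and 15.6% and 13.1% after merging. With the score limit, 7 members were marked at the start in both lists and 2, Cxcl3 and Cxcl10, after caerulein alone. Both have a start peak in each list that stood near the limit. The percentiles were 52.0 after caerulein and 48.9 untreated at Cxcl10, and 57.2 and 46.9 at Cxcl3. A peak over the start itself left 1, Ccl17, after caerulein alone, and a window of 2.5 kb 1, Ccl6. Clusters past 1.5-fold numbered 3 after caerulein and 1 untreated, and 0 and 0 with a pseudocount of 5 kb. The untreated number was 2 within 10 kb and 0 at a fold of 2. Members past 1.5-fold (5 after caerulein and 1 untreated of 26) numbered 3 and 3 of 20 within 10 kb, against 8.37% and 7.1% of all genes with a peak. They numbered 1 and 0 of 26 with a pseudocount of 5 kb (background 3.08% and 2.94%). At a fold of 2 they were 2 and 0 of 26 (background 3.11% and 2.89%). The post-caerulein number was 10 of 22 with the score limit (background 9.74%), and the untreated number 3 of 30 within 100 kb (background 5.74%). The log2 ratio summed over clusters kept its sign under the 6 other settings tried and was 0.08 without the Cxcl5 to Cxcl2 cluster, chosen after seeing the data. With the score limit the log2 ratio at that cluster was 0.59. For all of these, the cause was not tested. No paired analysis was possible because there is a single library per condition, which also means that leaving one out was not possible. List-only counts are limited by a depth that is unknown.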

Other observations

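Some list-only peaks in the windows belonged to genes that are no chemokine ligands. Beside Cxcl16, a post-caerulein-only peak of 2906 bp (score 236.26, percentile 35.0 of its list) lay over Arrb2, which encodes an arrestin that desensitises G protein-coupled receptors, and an untreated-only peak of 1708 bp lay 6188 bp from Zmynd15. Beside Cxcl10, post-caerulein-only peaks of 1502 and 2421 bp and an untreated-only peak of 1302 bp lay over Art3, an ADP-ribosyltransferase gene. Beside Ccl24, a post-caerulein-only peak of 3088 bp (score 103.51) lay 13704 bp from Rhbdd2. Beside Ccl25, an untreated-only peak of 1355 bp lay over Elavl1, which encodes an RNA-binding protein. Next to Ccl28, Hmgcs1, an enzyme gene of cholesterol synthesis, had a region of 12341 bp untreated and 11915 bp after caerulein.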
